A study of Mus musculus with 4 samples.

Results

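The 10 genes described here encode matricellular and adhesive matrix glycoproteins and were followed through the healing of the mouse carotid artery: the thrombospondins Thbs1, Thbs2, Thbs3 and Thbs4, tenascin C (Tnc), periostin (Postn), Sparc, its relative Sparcl1, fibronectin (Fn1) and versican (Vcan). They were chosen by name as a protein group, with earlier results of these data known, and all 10 of 10 were found among the 31053 genes listed for the series. The data were 4 single-cell RNA libraries of carotid arteries from C57BL/6 mice aged 11 weeks, 1 library from before injury (day 0) and 1 each from days 3, 7 and 14 after wire injury, in which a wire drawn through the vessel damages its lining and wall. No genetic change or other treatment is given for any group. The labels give the same digestion for all 4 libraries. The methods state that carotids from several males went into each library and that thrombosed vessels were not used. Each day is therefore 1 library, with no replicate. No test between days can be made, and every interval below covers counting error of unique molecular identifiers (UMIs) only.

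Matricellular proteins are secreted into the extracellular matrix, where they mostly regulate rather than build it: they bind integrins, growth factors and proteases and alter how cells adhere, migrate and deposit collagen. Many are scarce in resting adult tissue and are made again in wounds. Fibronectin and versican also carry structural load, fibronectin as the first fibrillar scaffold of a wound and versican as a large proteoglycan that binds hyaluronan and swells the matrix.

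The 4 libraries held 333, 1689, 3001 and 1138 barcodes and 2672722, 18989081, 27973418 and 13329564 UMIs at days 0, 3, 7 and 14. Libraries shared cell barcodes: 152 barcodes were present at both day 0 and day 3, and 64 at both day 7 and day 14. For 214 of the shared barcodes, 1 copy held at least 5 times fewer UMIs than the other, and that shallow copy was left out. With the copies kept, the count of the 10 genes past 2-fold stayed within 1.5 times of its value in each of the 10 comparisons planned here. After filtering, 281, 1405, 2693 and 1029 cells remained. The tissue label was checked against markers: at day 0 the library held 196 fibroblast-like cells and 11 smooth muscle-like cells, although smooth muscle is the chief cell of the arterial media, so statements on smooth muscle before injury rest on 11 cells. Monocyte/macrophage-like cells numbered 3 at day 0 and 520, 868 and 182 at days 3, 7 and 14. A further 717 cells, or 13.3%, could not be named. They include most of the 121 cells of proliferating clusters. Such a cell was named only if at least 60% of its non-proliferating neighbours were of 1 class, which held for 24. One proliferating cluster, at a median of 62097.5 UMIs per cell, passed 11 fibroblast markers and had 14 of its 22 cells at day 3. At day 3 the unnamed cells held 11.3% of all UMIs and 29.2% of the Thbs2 UMIs.

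The cells that carried these transcripts changed with the day. At day 0, fibroblast-like cells held 93.5% of the Fn1 UMIs, 94.7% of the Sparc UMIs and 82.8% of the Vcan UMIs, with 81.4% of all UMIs of that library in the same cells. At day 3, monocyte/macrophage-like cells held 50.6% of the Fn1 UMIs, 48.5% of the Vcan UMIs and 46.1% of the Thbs1 UMIs, against 28.5% of all UMIs. Smooth muscle-like cells, with 16.7% of all UMIs at day 3, held 76.2% of the Tnc UMIs, 65.6% of the Postn UMIs and 97.9% of the Sparcl1 UMIs. At day 14 fibroblast-like cells held most of the UMIs of each of the 10 genes, from 51.8% for Sparcl1 to 99.4% for Thbs4, beside 47.8% of all UMIs. These shares follow both how many cells of a class were caught and how much each of them carried, and the 2 cannot be separated in a share.

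**Figure D1:**
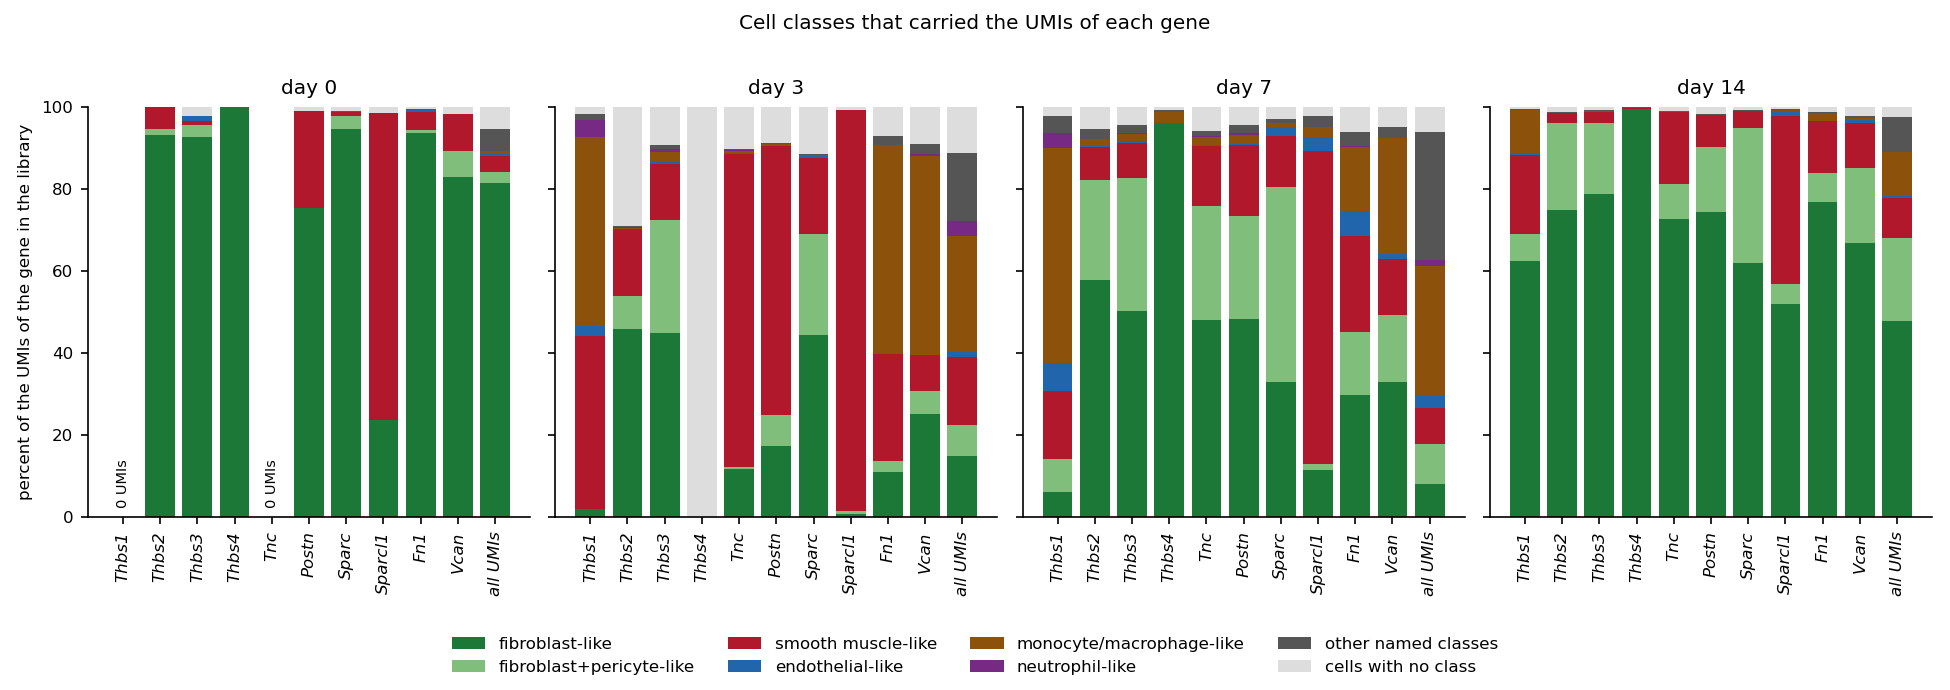
Stacked bars give the percent of the UMIs of each gene, and of all UMIs, that came from each cell class in the libraries of days 0, 3, 7 and 14. Fibroblast-like cells hold 93.5% of Fn1 at day 0 and 76.7% at day 14, monocyte/macrophage-like cells 50.6% at day 3, and Thbs1 and Tnc had 0 UMIs at day 0.

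Fibroblast-like cells were compared between days first, since they make most vascular matrix outside the media. Levels are the summed UMIs of a gene in a group, scaled by the total of that group to CPM. A gene was called when its CPM was at least 2-fold higher or lower, among genes with at least 20 UMIs in the 2 groups together, and 0 UMIs were taken as 3. At day 7 all 10 genes were at least 2-fold higher than at day 0, whereas 10.9% of the 10224 genes compared were called in that direction, 10.7% in the other and 21.6% in either. The median log2 ratio of the 10, with 0 UMIs taken as 3, was 3.81, and that of all genes was -0.02. At day 14, 9 of the 10 were at least 2-fold higher than at day 0 (9.2% of all genes higher, 5.79% lower, 15% either), with a median log2 ratio of 3.37 beside -0.02 for all genes, and Vcan was 1.32-fold of its day 0 level. At day 3, 6 of the 9 that could be compared were higher (9.55% of all genes) and Sparcl1 was lower (13.4% of all genes, 22.9% in either direction). That count of 7 past 2-fold was 4 without cells of over 30000 UMIs, at clustering resolution 0.5 and with each library clustered on its own. The medians were 1.73 and -0.12. From day 3 to day 7, 8 of 10 were higher and none lower (8.08% and 3.23% of all genes, 11.3% in either direction), Sparc and Vcan being the exceptions at 1.61-fold and 1.52-fold. Between day 7 and day 14 the genes parted, with 2 higher (7.67% of all genes) and 3 lower (5.51% of all genes, 13.2% in either direction), and medians of -0.48 and 0.01. That count of 5 was 3 as a mean over cells and without cells of over 30000 UMIs. The fibroblast-like cells of the 4 days were not the same mixture. At day 0, 170 of 196 lay in a cluster led by Rbp4, and at day 3, 41 of 47 in a cluster led by Saa3 and Prg4. At day 14, 231 of 309 lay in a cluster led by C1qtnf3 and Angptl1. At day 7, 35 of 67 lay in the C1qtnf3-led cluster and 24 in the Saa3-led cluster, which held 1 and 0 cells at day 0. The Rbp4-led cluster held 2 cells at day 7. The ratios of day 7 to day 0 therefore compare largely different clusters. The median depth of fibroblast-like cells was 10204, 58550, 32456 and 20501 UMIs per cell at days 0, 3, 7 and 14. The part of mixture or depth in the differences was not tested. Values within single clusters are given below, but none for day 7 against day 0, since no cluster held 10 cells on both days.

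Thrombospondin 1, a trimeric protein known for binding CD36 and CD47 and for activating latent TGF-beta, was at 0 UMIs in fibroblast-like cells at day 0. Those cells held 2125373 UMIs, of which 3 would be 1.41 CPM. Thbs1 was at 46.7, 290.2 and 132 CPM at days 3, 7 and 14. With 0 UMIs taken as 3, that is 33.1-fold, 206-fold and 93.2-fold higher. The intervals gave at least 26.5-fold, 167-fold and 75.6-fold. The whole day 0 library held no Thbs1 UMI either, among 2609848. The other trimer, thrombospondin 2, an anti-angiogenic protein of collagen assembly, was present before injury at 32.0 CPM and stood at 106, 563 and 424 CPM at days 3, 7 and 14. Its day 7 level was 17.6-fold that of day 0 (interval 13.8 to 22.8). The day 3 ratio of 3.31 became 0.88 without cells of over 30000 UMIs, which left 10 cells at day 3.

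The pentameric thrombospondins behaved differently from each other. Thbs3 was at 77.6, 95.6, 249.8 and 197 CPM at days 0, 3, 7 and 14, and its ratio of 3.22 at day 7 was smaller than that of Thbs1 or Thbs2. Thbs4, known for roles in tendon and heart matrix, was at 3.76 CPM (8 UMIs) at day 0, at 0 UMIs at day 3, and at 103 and 260.4 CPM at days 7 and 14. It was 1 of the 2 genes that were called higher at day 14 than at day 7, by 2.53-fold (2.20 to 2.93), while Thbs1 was at 0.45 of its day 7 level. Of all Thbs4 UMIs, 96.1% at day 7 and 99.4% at day 14 lay in fibroblast-like cells, so it marked this class more narrowly than the other members did. Without the cluster led by Saa3 and Prg4, an alternative added after the data were seen, the Thbs4 ratio of day 7 to day 0 was 4.09 in place of 27.3, and that of day 14 to day 7 was 16.9.

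Tenascin C, a hexameric anti-adhesive protein of wounds and tumours, was highest at day 7 in these cells. Tnc was at 0 UMIs at day 0, at 38.9 CPM at day 3, at 402 CPM at day 7 and at 69.2 CPM at day 14. With 0 UMIs taken as 3, its day 7 level was 285-fold above day 0, and the interval gave at least 231-fold. Its day 14 level was 0.17 of that at day 7 (0.153 to 0.193). Periostin, which helps to cross-link collagen, was at 184, 533, 3799 and 2386 CPM at days 0, 3, 7 and 14. Day 7 stood 20.7-fold above day 0 (18.7 to 22.9), and the interval for day 14 ran from 11.7 to 14.4, so Postn kept more of its day 7 level than Tnc did, at 0.63 of it.

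Sparc, a collagen-binding protein that assists fibril assembly, was detected before injury in 96.9% of fibroblast-like cells thinned to 1000 UMIs. It stood at 7165, 10333, 16596 and 19005 CPM at days 0, 3, 7 and 14 and had the smallest ratio of highest to lowest day of the 10, with ratios of 1.44, 2.32 and 2.65 to day 0. Sparcl1, also called hevin, shares the collagen-binding fold. It was at 13.6, 1.11, 29.6 and 113 CPM, with 3 UMIs at day 3, and was 3.81-fold higher at day 14 than at day 7. Its lower level at day 3 became 2.06-fold higher than day 0 without cells of over 30000 UMIs. As a mean over cells, which gives shallow and deep cells the same weight, the day 14 to day 7 ratio was 1.18.

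Fibronectin was at 329.8, 1237, 3695 and 2532 CPM at days 0, 3, 7 and 14, ratios of 3.75, 11.2 and 7.68 to day 0. Versican was at 90.8, 355, 541 and 120 CPM. Both were highest at day 7, and Vcan at day 14 was at 0.22 of that level (0.202 to 0.243). The Fn1 ratio of day 3 to day 0 depended on which cells were called fibroblast-like: it was 0.89 with clustering at resolution 0.5 and 0.80 with each library clustered on its own. These settings kept 25 and 40 fibroblast-like cells at day 0 in place of 196.

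**Figure D2:**
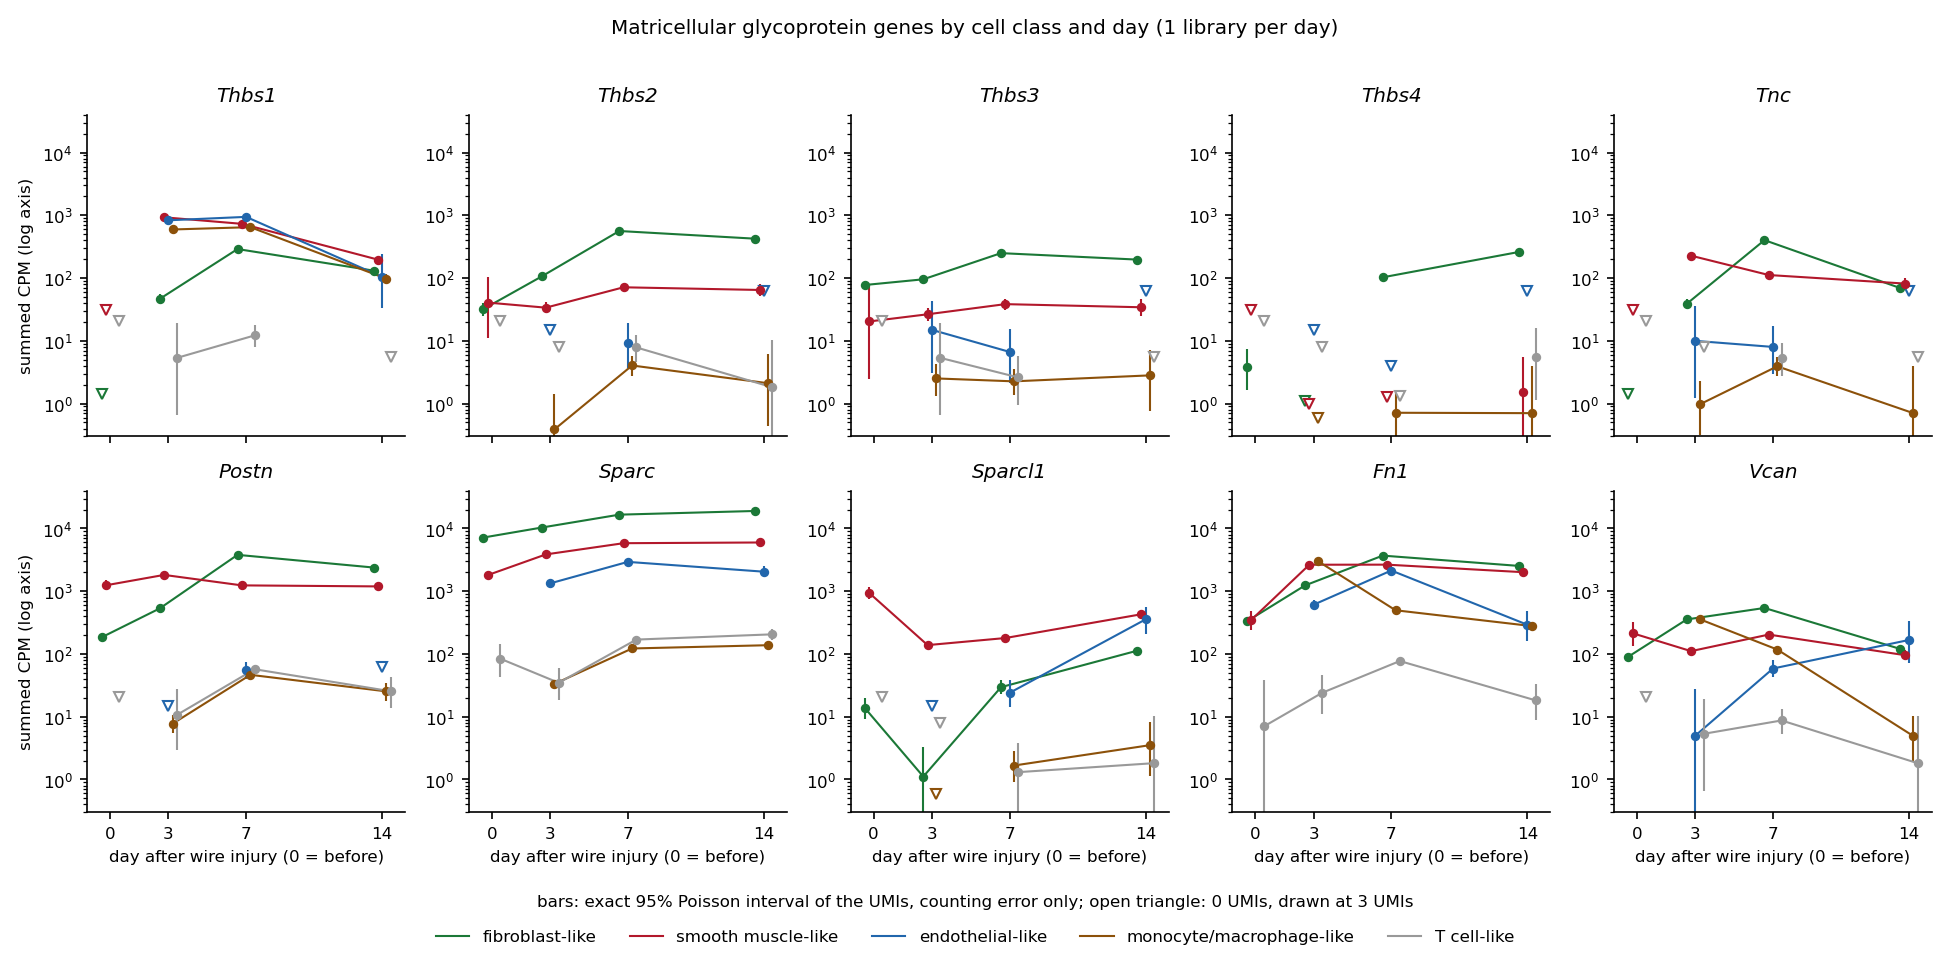
Points give the summed CPM of each gene on a log axis in 5 cell classes at days 0, 3, 7 and 14, with exact 95% Poisson intervals of the UMIs. Open triangles mark 0 UMIs and sit at the level of 3 UMIs, and T cell-like cells show the level found in a class that should not make these proteins. In fibroblast-like cells Tnc reaches 402 CPM at day 7 and 69.2 CPM at day 14, whereas Thbs4 reaches 260.4 CPM at day 14.

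Within single clusters the genes separated. None of the 10 was among the variable genes used for clustering. Thbs4 is nonetheless among the 10 leading genes of the C1qtnf3-led cluster and Thbs1 among those of the macrophage cluster led by Plac8. When the non-immune cells were clustered by themselves, Tnc was a leading gene of a sub-cluster of 49 cells, after Col2a1 and Col9a1. Of these, 31 were from day 7, and 23 of the 49 were fibroblast-like. In the Rbp4-led cluster, which had 170 cells at day 0 and 34 at day 14, Postn was at 226 and 1002 CPM, Thbs2 at 24.1 and 168 CPM, and Sparc at 8280 and 20607 CPM. The same cluster held Fn1 at 80.5 CPM (67.6 to 95.1) and 88.3 CPM (63.1 to 120.2), intervals that overlap, and it held no UMI of Thbs1 or Tnc on either day. In the cluster led by Igfbp5 and Sema3c, with 25 and 44 cells, Fn1 was already at 1390 CPM at day 0 and was at 4036 CPM at day 14, while Postn was at 14.8 and 1377 CPM. Thbs2 was at 66.6 and 131 CPM and Sparc at 2662 and 9990 CPM there. Tnc was at 0 UMIs in that cluster at both days, and Thbs1 was at 0 and 27.1 CPM. The 430 Tnc UMIs that fibroblast-like cells held at day 14 all lay in the cluster led by C1qtnf3 and Angptl1, which had 1 cell each at day 0 and day 3. Postn, Thbs2 and Sparc were therefore higher at day 14 in each of the clusters that both days filled, whereas the higher Fn1 lay in the Igfbp5-led cluster and in a cluster that day 0 hardly held.

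Between day 7 and day 14 the C1qtnf3-led cluster, with 35 and 231 cells, gave the same directions as the whole class. Tnc was at 539 and 86.8 CPM, Postn at 5438 and 2677 CPM, and Fn1 at 5030 and 2510 CPM. Thbs4 went the other way, from 19.0 CPM (11.1 to 30.4) to 324 CPM (308 to 340.2). Between day 3 and day 7 the deep Saa3-led cluster, with 41 and 24 cells, had Tnc at 38.7 and 366 CPM and Thbs4 at 0 UMIs and 197 CPM.

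**Figure D3:**
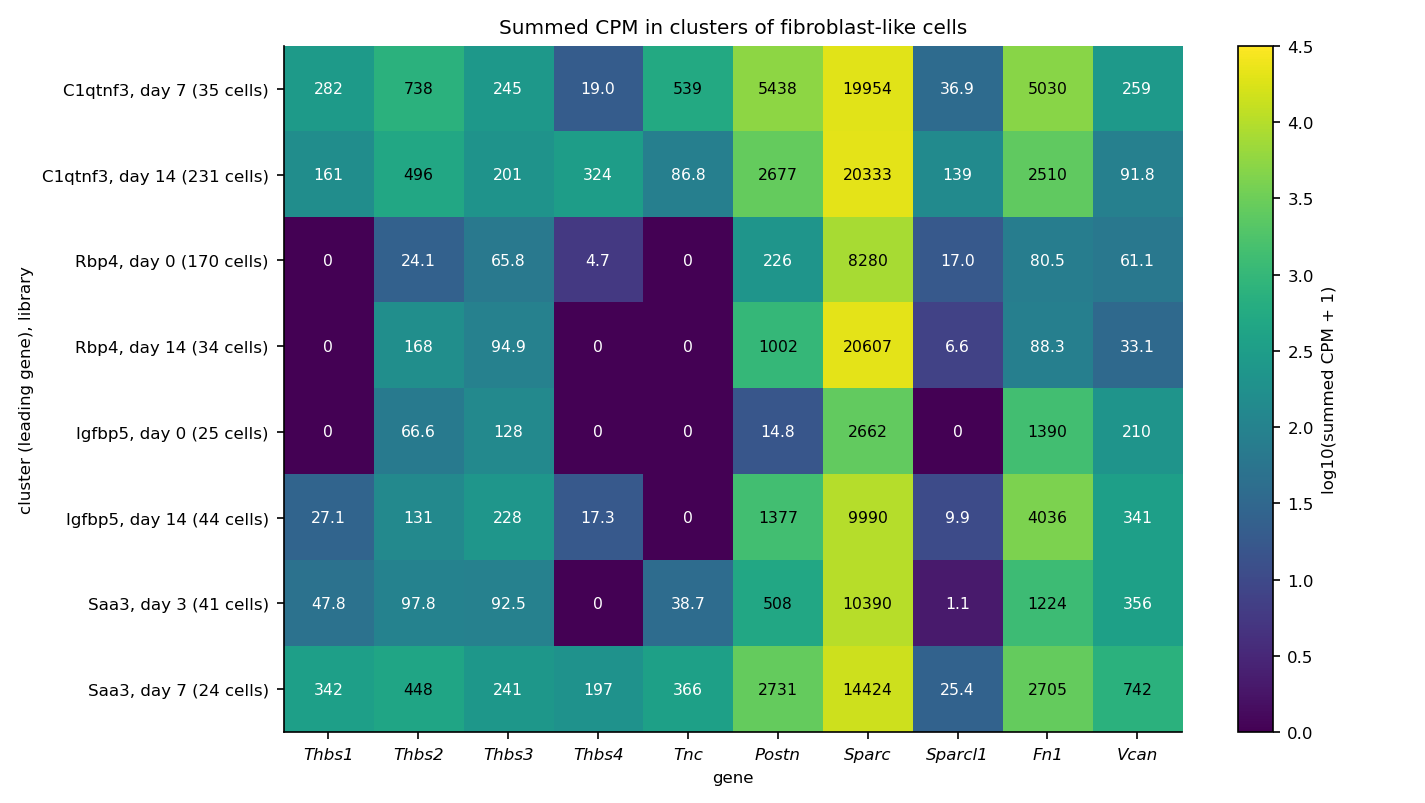
Each row is 1 cluster of fibroblast-like cells in 1 library and each column 1 gene; the number is the summed CPM and the colour its log10 after adding 1. The Rbp4-led rows keep Fn1 at 80.5 and 88.3 CPM and have no Thbs1 or Tnc, while Thbs4 is at 324 CPM in the C1qtnf3-led cluster at day 14.

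Promoters are shown for 4 genes whose time courses in fibroblast-like cells differed: Postn and Thbs2, high at days 7 and 14, Tnc, high mainly at day 7, and Thbs4, highest at day 14. RefSeq promoter sequences on GRCm38.p6 matched 7 of the 10 genes, with 9 start sites, and none was found for Thbs1, Fn1 or Sparcl1. The 250 bases before the start were searched for TGANTCA (AP-1), GGAATG (TEAD), GGGCGG (GC box) and the CArG box on both strands, and for TATAAA on the gene's strand. The TEAD matches of Thbs4 overlap by 1 base. Each sequence runs 5′ to 3′ on the strand of its gene and ends at the base before the start, with matches in capitals.
Postn, chr3:54360857-54361106, plus strand: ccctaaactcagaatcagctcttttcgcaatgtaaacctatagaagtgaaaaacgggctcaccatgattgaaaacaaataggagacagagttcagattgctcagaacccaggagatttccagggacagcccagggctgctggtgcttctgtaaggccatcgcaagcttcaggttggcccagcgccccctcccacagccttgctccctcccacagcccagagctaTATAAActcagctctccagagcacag
Tnc, chr4:64046937-64047186, minus strand: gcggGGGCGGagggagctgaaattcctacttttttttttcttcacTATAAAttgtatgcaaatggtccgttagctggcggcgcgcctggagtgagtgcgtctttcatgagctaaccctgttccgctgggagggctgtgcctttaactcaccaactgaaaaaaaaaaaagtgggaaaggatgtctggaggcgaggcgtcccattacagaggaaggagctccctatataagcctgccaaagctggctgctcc
Thbs2, chr17:14694263-14694512, minus strand: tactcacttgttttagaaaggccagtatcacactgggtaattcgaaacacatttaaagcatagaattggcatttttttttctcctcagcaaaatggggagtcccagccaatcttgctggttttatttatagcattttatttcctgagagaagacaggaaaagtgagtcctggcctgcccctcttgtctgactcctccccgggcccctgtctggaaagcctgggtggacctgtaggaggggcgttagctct
Thbs4, chr13:92794819-92795068, minus strand: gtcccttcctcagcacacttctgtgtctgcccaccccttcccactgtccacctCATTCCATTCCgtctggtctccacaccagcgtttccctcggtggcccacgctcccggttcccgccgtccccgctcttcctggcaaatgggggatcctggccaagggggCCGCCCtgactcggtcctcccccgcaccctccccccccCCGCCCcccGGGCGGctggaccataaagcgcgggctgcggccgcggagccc
Postn has TATAAA 26 bases before this start, and Tnc has it 205 bases before this start; 7.59% of the 32851 promoters of this length hold it. Thbs4 has 3 GC boxes, which 32.7% of promoters hold at least once, and 2 TEAD matches, which 12.6% hold. Thbs2 matched none of the 5 motifs. None of the 9 start sites held the AP-1 or the CArG letters, which stand in 6.75% and 1.47% of promoters. With shares this low, 0 of 9 does not set the members apart. A match here describes letters in a window and is not a binding site.

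Smooth muscle-like cells carried the early tenascin, and their values follow for Thbs1, Tnc, Postn, Fn1, Sparc and Sparcl1. Thbs1 was at 0 UMIs at day 0, where 3 UMIs would be 30.5 CPM, and at 930, 732 and 197 CPM at days 3, 7 and 14. Tnc was at 0 UMIs at day 0 and at 227, 112 and 81.8 CPM, so that day 3 was the highest day here and day 7 in fibroblast-like cells. The ratio of day 7 to day 3 was 0.49 for Tnc in smooth muscle-like cells and 10.3 in fibroblast-like cells.

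Fn1 was at 346, 2644, 2651 and 2011 CPM in smooth muscle-like cells, 5.81-fold to 7.66-fold above day 0. Postn was at 1242, 1819, 1239 and 1193 CPM, and its ratios of 1.46, 1.00 and 0.96 to day 0 did not reach 2-fold. Sparc was at 1802, 3861, 5825 and 5978 CPM. Sparcl1 was at 937, 138, 179 and 429 CPM, and it was lower than day 0 by 2-fold or more on each day after injury. Compared with day 0, Thbs1, Tnc, Fn1 and Sparc were called higher at each of days 3, 7 and 14, 4 of 9 genes compared, beside 11.3%, 13.2% and 10.1% of all genes. Sparcl1 was called lower at each of those days and Vcan at day 14, beside 25.7%, 22.3% and 11.3% of all genes. In either direction 37%, 35.6% and 21.3% of all genes were called. The median log2 ratios of the 9 were 0.55, 0.92 and 0.75 and those of all genes -0.30, -0.20 and -0.09. These shares and medians include genes at 0 UMIs at day 0, taken as 3. Some of them were called lower at days 3 and 7 although their UMIs came only after injury. Has1, with 0 UMIs at day 0 and 20 at day 3, was called lower at 0.22. Adamts4, with 0 and 24 UMIs at days 0 and 7, was called lower at 0.34. The shares lower and in either direction at those days are therefore too high. With each library clustered on its own, Sparcl1 was higher than day 0 on each day, 1.74-fold, 1.87-fold and 5.19-fold, and Sparc was lower, at 0.64, 0.98 and 0.85. Vcan at day 14 was then 1.34-fold higher than day 0. The directions against day 0 for Sparcl1, Sparc and, at day 14, Vcan thus depend on the clustering. Against day 3, with 89 cells, Sparcl1 was 3.10-fold higher at day 14 (2.73 to 3.53), and Thbs1 was at 0.21 and Tnc at 0.36 of their day 3 levels. Of 9 genes, Thbs2 was called higher and Tnc lower at day 7 against day 3 (5.41% and 3.04% of all genes, 8.44% in either direction), and 1 was higher and 2 lower at day 14 against day 3 (5.92% and 10.8% of all genes, 16.7% in either direction). The make-up of the class changed with the day: when the non-immune cells were clustered by themselves, 50, 39 and 66 smooth muscle-like cells of days 3, 7 and 14 lay in a sub-cluster led by Myh11, and 21 and 36 of days 3 and 7 in a proliferating one led by Hist1h2ap, Spp1 and Top2a. A shallow sub-cluster, at a median of 1186.5 UMIs per cell, was led by the macrophage marker Lyz2 and the smooth muscle marker Hspb7. It held 17, 4 and 2 smooth muscle-like cells of days 3, 7 and 14, and 3 of the 11 of day 0. In the Myh11-led sub-cluster at days 3, 7 and 14, Thbs1 was at 600.5, 185 and 95.3 CPM, Tnc at 160.5, 115 and 65.5 CPM and Sparcl1 at 252, 617 and 469 CPM.

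The cluster led by Col2a1, Rgs5 and Eln passed 12 fibroblast markers and 4 markers of pericytes, the mural cells of small vessels. It also passed 4 smooth muscle markers. The Rbp4-led and Saa3-led clusters of fibroblast-like cells passed 3 pericyte markers each. The joint name of fibroblasts and pericytes thus follows the marker rule and does not identify pericytes. Cells of that joint name numbered 54, 95 and 160 at days 3, 7 and 14. Thbs1 was at 1.49 CPM (2 UMIs) at day 3, at 334 CPM at day 7 and at 33.9 CPM at day 14. Tnc followed the same order of days, at 3.72, 196 and 19.1 CPM. Fn1 was also highest at day 7, with 658, 1619 and 556 CPM over the 3 days. Thbs4 had 0, 0 and 1 UMIs, whereas fibroblast-like cells held 1619 at day 14. These days hold different cells: in the clustering of non-immune cells alone, 49 of the 54 cells of day 3 lay in a sub-cluster led by Saa3 and Prg4, which held 8 of 95 at day 7. At day 7, 33 lay in the proliferating sub-cluster, 32 in one led by Col2a1 and Ibsp and 19 in one led by Col2a1, Col9a1 and Tnc. The proliferating sub-cluster held Thbs1 at 774 CPM at day 7, over 75 cells of which 36 were smooth muscle-like. At day 14, 112 of 160 lay in the sub-cluster led by Col2a1 and Ibsp, where Thbs1 was at 38.2 and 31.4 CPM and Tnc at 51.9 and 28.6 CPM at days 7 and 14. With that change of make-up, Thbs1 was 225-fold higher at day 7 than at day 3 (62.0 to 1859), Tnc 52.7-fold (22.4 to 163), Thbs2 5.31-fold and Postn 3.51-fold. At day 7 against day 3, 5 of 8 genes were higher and none lower (6.86% and 4.06% of all genes, 10.9% in either direction). At day 14 against day 3, 6 of 9 were higher, and Vcan was lower at 0.49 (9.86% and 4.86% of all genes, 14.7% in either direction).

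Monocyte/macrophage-like cells made fibronectin, versican and thrombospondin 1 transcripts in the first days. Fn1 was at 3022, 497 and 279 CPM at days 3, 7 and 14. Vcan was at 359, 118 and 4.93 CPM, the last from 7 UMIs. Thbs1 was at 595, 648 and 97.8 CPM, so its level at day 7 was 1.09-fold that of day 3, when Fn1 was at 0.16 and Vcan at 0.33. At day 14 Fn1 was at 0.092 (0.0833 to 0.102), Vcan at 0.014 and Thbs1 at 0.16 of their day 3 levels. The class was not the same mixture on these days. A cluster led by Ccl6 had 282 cells at day 3 and 1 at day 14, and a cluster led by Ms4a7 had 72 and 125. The part of this in the ratios was not tested, and values within clusters are given below. In the class as a whole, 2 of 8 genes compared were called lower at day 7 than at day 3 (4.05% of all genes) and 3 of 5 at day 14 (9.28% of all genes). Called in either direction were 9.92% and 15.4% of all genes, and the medians of the members were 1.00 and -2.60 beside -0.11 and -0.14 for all genes. Against day 7, 3 of 8 were lower at day 14 and none higher (6.14% and 4.08% of all genes, 10.2% in either direction): Thbs1 at 0.15, Vcan at 0.042 and Tnc, which rested on 1 UMI at day 14, at 0.18 (0.00441 to 1.07). T cell-like cells, which give the level of free RNA, had Fn1 at 24.0, 77.2 and 18.2 CPM, Thbs1 at 5.34, 12.2 and 0 CPM and Vcan at 5.34, 8.72 and 1.82 CPM, all below the macrophage values at days 3 and 7. At day 14 the Vcan intervals of the 2 classes overlap.

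The genes called higher in monocyte/macrophage-like cells were at background. They were Postn, Sparc, Tnc and Thbs2 at day 7 (4 of 8, beside 5.87% of all genes) and Postn and Sparc at day 14 (2 of 5, beside 6.08%). Postn was at 7.75, 46.5 and 25.3 CPM at days 3, 7 and 14, next to 10.7, 57.1 and 25.5 CPM in T cell-like cells. Sparc was at 33.3, 122 and 138 CPM, next to 34.7, 169.6 and 206 CPM. The 12 fibroblast markers summed to 435, 494 and 530.0 CPM in the monocyte/macrophage-like cells, with none of them at 0, and these values are read as background and not as expression.

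Clusters of monocyte/macrophage-like cells differed in all 3 genes. The cluster led by Ccl6, a chemokine gene, had 282 of its 326 cells at day 3 and held Fn1 at 4327 CPM there and at 1889 CPM at day 7. The cluster led by Plac8 and Klra2, with 77, 408 and 17 cells at days 3, 7 and 14, held the most Thbs1 on each day, at 1173, 1164 and 541 CPM, and Vcan at 369, 227 and 12.2 CPM. The cluster led by Ms4a7 and C1qa, a complement gene of resident-type macrophages, held Thbs1 at 147, 168 and 41.1 CPM and Fn1 at 681, 305 and 38.5 CPM at days 3, 7 and 14. In the cluster led by Retnla and Acp5, Fn1 was at 1364, 644 and 2777 CPM, the last in 36 cells (2438 to 3149), so the lower Fn1 of the class at day 14 did not hold in each cluster. The median depth of that cluster was 2240 UMIs per cell. Neutrophil-like cells held Thbs1 at 406 and 1023 CPM at days 3 and 7, while their Fn1 stood at 59.4 and 113 CPM. Dendritic-like cells held Thbs1 at 19.9, 16.8 and 6.12 CPM at days 3, 7 and 14, far below the other myeloid classes.

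**Figure D4:**
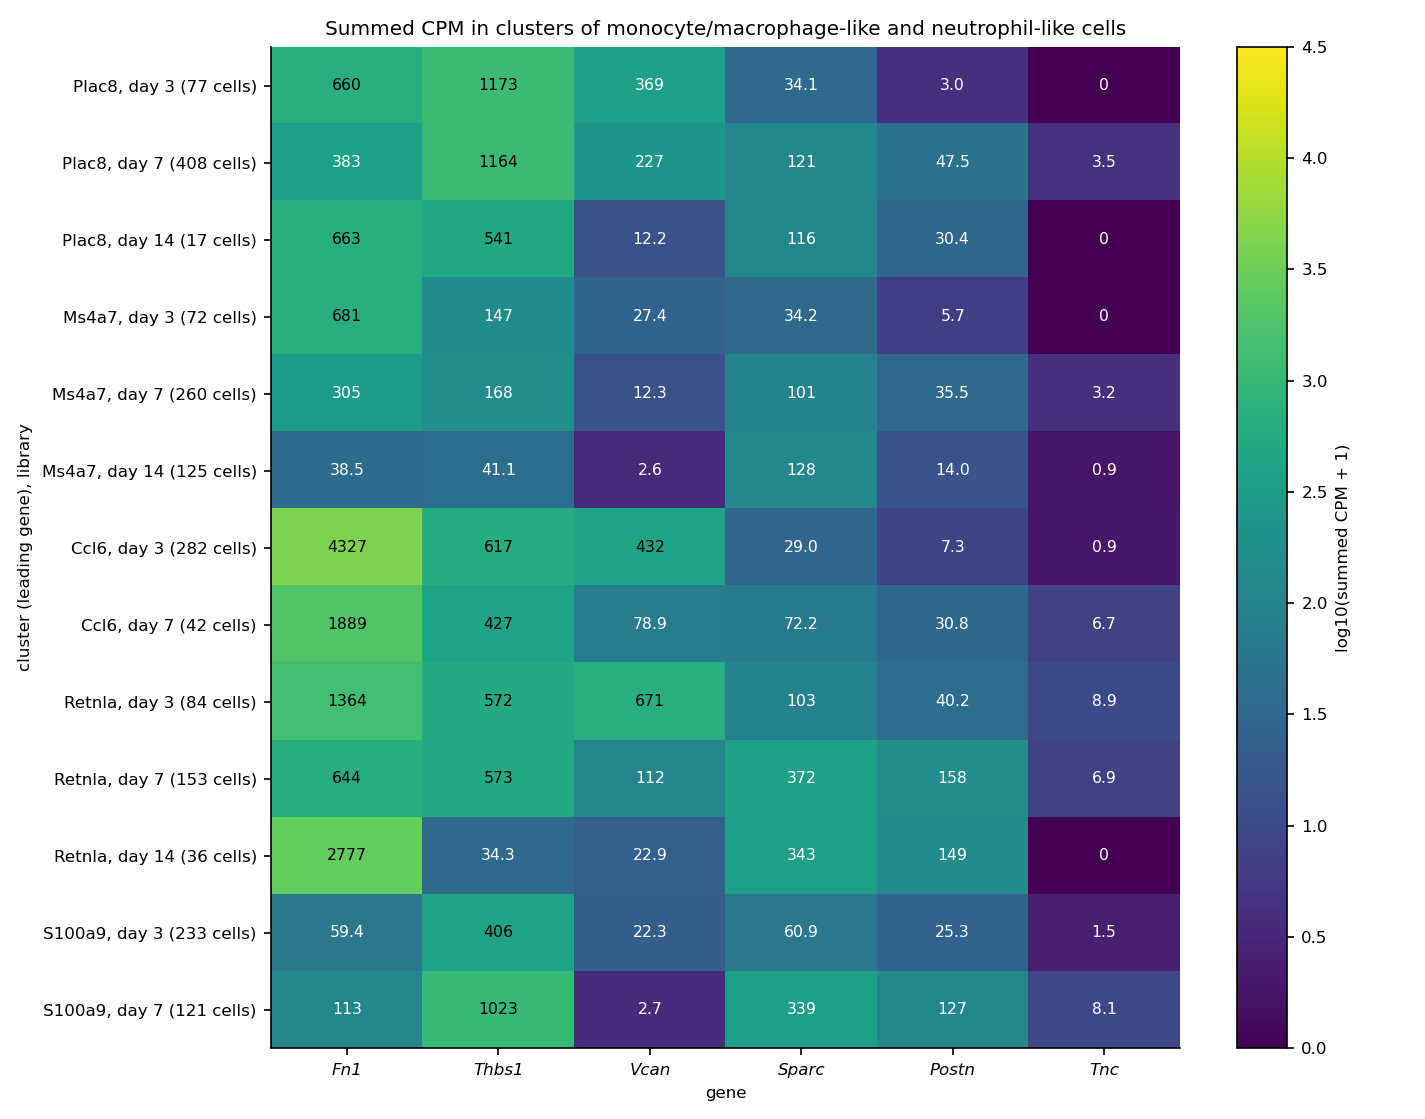
Rows are clusters of monocyte/macrophage-like and neutrophil-like cells by library, columns are 6 genes, numbers are summed CPM and colours their log10 after adding 1. Fn1 peaks at 4327 CPM in the Ccl6-led cluster at day 3, and Thbs1 at 1173 CPM in the Plac8 cluster, while Tnc is at or below 8.94 CPM throughout.

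Endothelial-like cells could be compared only between day 3 (39 cells) and day 7 (56 cells), at a median of 1136 and 1706 UMIs per cell. Thbs1 was at 834 and 945 CPM, a ratio of 1.13. Fn1 was at 609 and 2138 CPM, a ratio of 3.51 (2.92 to 4.25), and Sparc was at 1333 and 2934 CPM, a ratio of 2.20. Of 5 genes compared, 4 were called higher (16.5% of all genes, 7.97% lower, 24.5% either), with medians of 1.81 and 0.09; Vcan rested on 1 UMI at day 3, at 11.7-fold (2.00 to 474), and Postn at day 7 stood at 56.0 CPM, the level of T cell-like cells. The count was 2 with at least 100 UMIs, and Postn was at 0.33 with each library clustered on its own. The 12 fibroblast markers summed to 1198 CPM at day 3 and 3366 CPM at day 7 in these cells, and their part in the ratios was not tested. At day 14 the 18 cells held macrophage markers at 5099 CPM, and no comparison was made.

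Shares of cells with a UMI gave the order of the sums for Fn1, Postn and Thbs1 in fibroblast-like cells. For Tnc the day 3 share rested on 1 of 47 cells, so its shares do not settle the order of days 0, 3 and 14. The order was not that of the sums for Vcan, seen in 23.4% of cells at day 3 and 20.9% at day 7 with intervals that overlap. For Sparcl1 it was not given either, with 2 of 193 cells at day 0 and 1 of 47 at day 3. After each cell was thinned to 1000 UMIs, Fn1 was seen in 11.4% of fibroblast-like cells at day 0 (7.28 to 16.7), 59.6% at day 3, 89.6% at day 7 and 74.4% at day 14. Unthinned, the shares were 34.7%, 91.5%, 98.5% and 93.9%. The background was 0 of 18, 1.59%, 9.59% and 3.26% in T cell-like cells (unthinned 5.56%, 14.1%, 34.1% and 9.38%), at medians of 6732, 5479, 5543 and 5062 UMIs per cell. Postn was seen in 9.33%, 29.8%, 88.1% and 71.8% of the fibroblast-like cells, against 0 of 18, 3.17%, 8.77% and 1.09% of T cell-like cells. Tnc was seen in 0 of 193 cells at day 0, where 3 cells would be 1.55%, and in 2.13% (1 of 47), 20.9% and 4.87% of cells at days 3, 7 and 14. In monocyte/macrophage-like cells Fn1 was seen in 60.6%, 25.2% and 15.9% of cells at days 3, 7 and 14 (unthinned 82.1%, 60.6% and 29.7%), and Thbs1 in 27.2%, 29.6% and 3.82%, against 0 of 63, 0.274% and 0 of 92 T cell-like cells for Thbs1. Among thinned fibroblast-like cells of day 14, Thbs4 was seen in 9.61% of the 229 cells with Fn1 and in 0 of the 79 cells without it, and in 25.9% of the 27 cells with Thbs1 against 5.34% of the 281 without. All thinned cells have the same depth, and these pairs are a description.

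**Figure D5:**
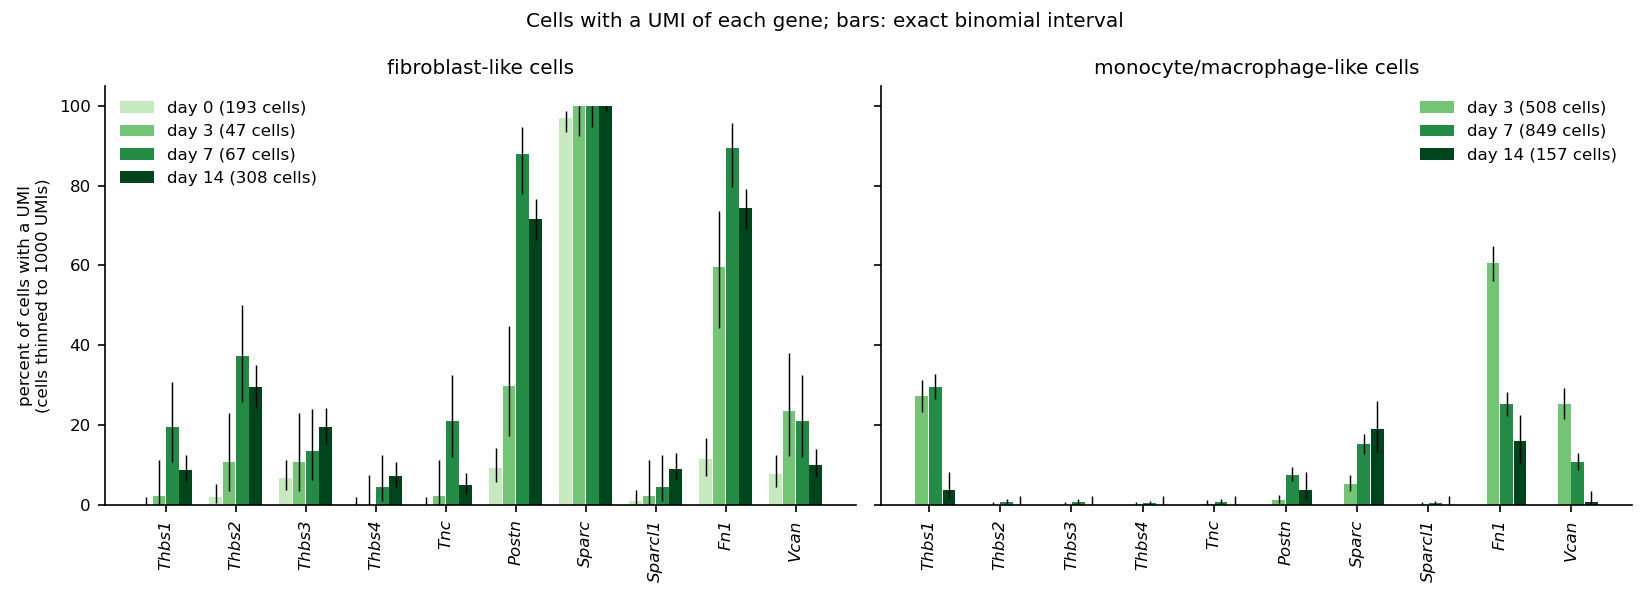
Bars give the percent of fibroblast-like (left) and monocyte/macrophage-like (right) cells with a UMI of each gene after thinning to 1000 UMIs per cell, by day, with exact binomial intervals. Postn reaches 88.1% and Fn1 89.6% of fibroblast-like cells at day 7, while Fn1 goes from 60.6% at day 3 to 15.9% at day 14 in monocyte/macrophage-like cells.

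Other genes of the same pathway follow as counts. Of 17 other matricellular genes, 16 could be compared in fibroblast-like cells between day 7 and day 0, and 6 were higher and 6 lower, with a median log2 ratio of -0.02, where 10.9% of all genes were higher and 10.7% lower. Osteopontin (Spp1) was at 0 and 221 CPM, 157-fold higher with 0 UMIs taken as 3 and at least 127-fold by its interval. Spon2 was at 1.88 and 53.5 CPM, 28.4-fold. The calcium-binding Smoc1 and the testican Spock2 were lower, at 0.031 and 0.018 of day 0. Of 16 receptors, 13 could be compared, with 4 higher and 2 lower: the fibronectin receptor subunit Itga5 was 5.38-fold higher, Itgb3 5.21-fold and the hyaluronan receptor Cd44 4.75-fold, whereas Itga8 was at 0.095 of day 0. Of 11 genes of hyaluronan and versican turnover, 8 could be compared and 4 were higher, none lower: the versican-cleaving protease Adamts4 (8.41-fold), the hyaluronan modifier Tnfaip6 (7.39-fold) and the synthases Has1 (3.82-fold) and Has2 (3.13-fold). Against day 3, none of 8 compared was higher at day 7 and 4 were lower (8.08% and 3.23% of all genes): the proteases Adamts5 at 0.41, Adamts9 at 0.45, Adamts1 at 0.47 and Adamts15 at 0.47. In monocyte/macrophage-like cells at day 14 against day 3, 4 of 14 receptors compared were lower and 1 higher (9.28% and 6.08% of all genes). Cd36 was at 0.33 and Lrp1 at 0.41, Itga9, the receptor called higher and named here outside the rule, was at 2.17 (1.57 to 2.99), and Spp1 was at 0.16.

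The likeness of patterns was taken as Pearson's r of log2(CPM + 10) over the 29 groups of class and day with at least 20 cells, which share libraries, so that r is a description. Among the members, Thbs2 lay nearest to Postn (r = 0.92) and to Thbs3 (0.91), and Sparc to Thbs3 (0.91) and Postn (0.88). Vcan lay nearest to Fn1 (0.83). Thbs1 and Thbs4 had the lowest values with their nearest members, Fn1 (0.63) and Thbs2 (0.62), and r between the pair was 0.08. Over the 7568 genes compared, those most like each member were Noct and Tgm2 for Thbs1 (0.77 and 0.76), Aspn and Cdh11 for Thbs2, Antxr1 and Srpx2 for Thbs3, C1qtnf3 and Spon2 for Thbs4, Trabd2b and Rgs4 for Tnc (both 0.89), Nov and Lox for Postn, Mxra8 and Fkbp9 for Sparc, Prkg1 and Gucy1a1 for Sparcl1, Gas2l1 and Adam9 for Fn1, and Fn1 and Rrbp1 for Vcan.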

How the data were processed

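Single-cell RNA was measured in 4 libraries of carotid arteries, 1 per day. The deposited values are raw UMI counts per gene and barcode, made by the authors with a droplet 3′ kit and, per the file headers, Cell Ranger 3.0.2. The build named per the labels is human, so no coordinates were taken from the files and those of the promoters come from RefSeq. Total counts ranged from 2672722 to 27973418 per library.

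Barcodes with under 200 genes or over 20% mitochondrial UMIs (453 of 6161) and the barcodes with the highest Scrublet scores (0.8% per 1000 barcodes, 106 in all, against 17 by Scrublet's own threshold) were removed. Left out too were 214 shallow copies of barcodes shared between libraries, with at least 5-fold fewer UMIs. This step was chosen after the data were seen, as was the joint naming of clusters that hold at least 0.9 of the markers of a second class. The cells kept were clustered together with scanpy 1.11.5 and leidenalg 0.10.2 (2000 variable genes, 30 components, 15 neighbours, resolution 1), leaving out 54 genes: the 10 members and the pathway lists. Non-immune cells were also clustered by themselves at resolution 0.5. Clusters were named by resemblance to marker lists (at least 3 markers). One cluster, led by Col2a1, Rgs5 and Eln, passed 12 fibroblast, 4 pericyte and 4 smooth muscle markers and was kept apart from the fibroblast-like cells.

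UMIs were summed by class and day. CPM has an exact Poisson interval (95%), a ratio an exact conditional binomial interval, and a share an exact binomial (Clopper-Pearson) interval. A group needed 10 cells. The scripts were tested on simulated data. The rule for naming genes was all members, up to 4 genes past 2-fold per pathway list and comparison, and the 2 genes most like each member. Alternatives were the mean over cells, no cells over 30000 UMIs, other clusterings, doublet and mitochondrial filters, 10 CPM added, scaling by the median ratio, a minimum of 100 UMIs and other thinning. Members and lists were chosen with earlier results of these data known.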

Additional observations from a re-analysis of the deposited data

Results flagged for a closer look

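Some genes were past 2-fold in opposite directions in different classes between the same libraries. These differences were not tested, since there is 1 library per day.

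Between day 3 and day 7, Fn1 was at 0.16 in monocyte/macrophage-like cells but at 2.99 in fibroblast-like cells, 3.51 in endothelial-like cells and 2.46 in cells of the cluster with fibroblast and pericyte markers. Vcan was at 0.33 in monocyte/macrophage-like and 11.7 in endothelial-like cells, the latter from 1 UMI at day 3. Tnc was at 0.49 in smooth muscle-like cells, 10.3 in fibroblast-like cells and 52.7 in the cluster with fibroblast and pericyte markers. The cells of that last cluster were not the same kind on each day: 49 of 54 at day 3 but 8 of 95 at day 7 lay in a sub-cluster led by Saa3 and Prg4, and 112 of 160 at day 14 in one led by Col2a1 and Ibsp. Its ratios in this section compare these different cells. The Tnc ratio of 4.06 in monocyte/macrophage-like cells came from 5 and 33 UMIs.

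Between day 3 and day 14, Thbs1 was at 0.16 in monocyte/macrophage-like and 0.21 in smooth muscle-like cells, and at 22.8 in the cluster with fibroblast and pericyte markers, where day 3 held 2 UMIs. Tnc was at 0.36 in smooth muscle-like cells and 5.12 in that cluster.

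Against day 0, Sparcl1 was at 2.17 and 8.25 in fibroblast-like cells at days 7 and 14 and at 0.19 and 0.46 in smooth muscle-like cells, of which day 0 held 11. With each library clustered on its own, the smooth muscle-like ratios were 1.87 and 5.19, so the directions were then no longer opposite.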

How the results depend on the processing

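No paired analysis was possible because each day is 1 library. Of the member ratios recomputed under the alternatives, 650 stayed within their interval, 288 left it in the same direction and 12 changed direction. Of the shares, 116 stayed within their interval and 128 left it, and of the highest levels of members in sub-clusters 12 stayed and 8 left. The count of members past 2-fold changed by over 1.5 times in 6 settings. For fibroblast-like cells at day 3 against day 0 it was 4 in place of 7 without cells of over 30000 UMIs, at resolution 0.5 and with each library clustered on its own. At day 14 against day 7 it was 3 in place of 5 as a mean of cells and without cells of over 30000 UMIs. For endothelial-like cells it was 2 in place of 4 with at least 100 UMIs.

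In fibroblast-like cells at day 3 against day 0, Thbs2 was at 0.88 and Sparcl1 at 2.06 without cells of over 30000 UMIs, and Fn1 was at 0.80 with libraries clustered apart and 0.89 at resolution 0.5. With libraries clustered apart, smooth muscle-like cells against day 0 had Sparc at 0.64, 0.98 and 0.85 and Sparcl1 at 1.74, 1.87 and 5.19 at days 3, 7 and 14, and Vcan at 1.34 at day 14. Endothelial-like Postn was then at 0.33. The cause was not tested.

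Under 10 cells remained, so no value was computed, for fibroblast-like cells at day 3 against day 0 without the cluster led by Saa3 and Prg4, and for the 3 smooth muscle-like comparisons with day 0 at no more than 10% mitochondrial UMIs. That cluster, the copied barcodes and the cluster led by Rgs5 and Eln were alternatives chosen after seeing the data. Counting intervals do not cover differences between animals, digestions or libraries, which cannot be told apart from the day.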
